A study of Zea mays with 56 samples.

Results

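New Mu insertions were compared between the leaf and the pollen of the same 6 maize plants, to ask which insertion sectors of a leaf are also found in the pollen and at what abundance. The comparison used 8 leaf libraries and 7 pollen libraries, 15 of the 56 libraries of the series, paired by the plant number in the labels (plants 74, 75, 76, 78, 79 and 83 of family ND58). Leaf and pollen of all 6 plants were labelled W22 MuActive, from a Mu-active male crossed to a Mu-inactive female of the same inbred, and each was grown from a kernel whose endosperm had been chipped for a library of its own. The endosperm of plant 74, which enters its calls of inherited sites and its endosperm values, carries the differing label B73 MuKiller & W22 MuActive. Leaves came from V2 seedlings (labelled primary leaf) and pollen was collected at maturity. The absence of a site from the other genotype was read in 4 leaf libraries of 3 Mu-inactive W22 plants, the genotype of the female parent. Leaf DNA was prepared with a kit and pollen DNA with a CTAB protocol, so tissue and extraction cannot be told apart. How many leaves or pollen grains entered a sample is not given in the sources used here.

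Mu elements are DNA transposons that move by inserting copies at new positions, and maize lines with an active autonomous element accumulate such insertions in many tissues. An insertion made in one cell passes to that cell's descendants, which then form a sector carrying the same site. A leaf is built from the epidermal and the inner layers of the shoot meristem, whereas pollen descends mainly from the inner layer, and the leaf primordia of a seedling separate from the cells that will form the tassel early in development. An insertion shared by leaf and pollen is therefore usually placed in a common ancestor of both lineages. One found in pollen alone is not dated by its absence from the leaf sample.

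Counts were put on a common scale as relative abundance, the count at a site divided by the library's reference level. The reference level is a library's median count over the 28 sites that all 50 undiluted libraries read with 10 or more counts. A relative abundance is not a fraction of cells: how many cells carry an insertion and how well its junction was amplified cannot be told apart in these bulk samples. A site was called inherited when it reached a relative abundance of 0.1 in the endosperm of the plant and again in one of its other tissues. It was called de novo when it was read in that plant, was not inherited, and had no counts in any other of the 17 Mu-active plants or in Mu-inactive leaf. De novo leaf sites of 0.01 or more are called leaf sectors here. The floor of a sample is 3 counts over its reference level, the limit that a count of 0 allows, and it covers counting error only.

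Depth differed strongly between the tissues. Leaf libraries held 606090 to 1881017 counts, with reference levels of 8618 to 23714. The pollen libraries of plants 74, 75, 76, 78 and 83 held 60167, 42383, 451155, 54493 and 21696 counts, with reference levels of 698.5, 451, 4586, 677 and 293. The 2 pollen libraries of plant 79 held 10152 and 7119 counts, with reference levels of 95.5 and 69. Pollen was therefore deep only in plant 76, where the floor was 0.000654, against 0.00429 in plant 74, 0.00443 in plant 78, 0.00665 in plant 75, 0.0102 in plant 83 and 0.0182 in plant 79.

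Inherited sites tied the pollen to its plant. Of 209 sites at 0.1 or more in both endosperm and leaf of a plant, all were at 0.1 or more in the pollen labelled with the same number. The pollen samples of the other 5 plants held 15.2% to 60.9% of them at that level. The median relative abundance of inherited sites was 0.635 ± 0.0554 in leaf and 0.780 ± 0.160 in pollen (SD, n = 6 plants). The difference of 0.145 was positive in 4 of 6 plants and did not pass the exact sign-flip test (two-sided p = 0.125, adjusted p = 0.219). On library totals as the scale it was 0.0509, positive in 5 plants (exact sign-flip, adjusted p = 0.131). By plant, the median log2 ratio of pollen to leaf ran from -0.18 in plant 74 to 0.68 in plant 76. Single inherited sites of a plant scattered around that median with an SD of 0.29 to 0.40 on the log2 scale. That scatter is the scale on which the abundance of any one site in pollen can be read against leaf.

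Leaf sectors were rarely found in pollen. The 6 leaves held 182 sectors, numbering 47, 25, 23, 10, 34 and 43 in plants 74, 75, 76, 78, 79 and 83, and 4 of them (2.20%, Wilson 95% interval 0.858% to 5.51%) had any count in the pollen of the same plant. Over all de novo leaf sites, 0.0821% were detected in pollen. Many of those sites are small: in the leaf libraries, 56.3% to 79.5% of the sites read had a single count. Plant 74 had 2 of its 47 sectors in pollen, plant 79 had 1 of 34 and plant 83 had 1 of 43. Plants 75, 76 and 78 had none of their 25, 23 and 10 sectors in pollen, which allows shares of up to 12%, 13.0% and 30%. Without plant 79, 3 of 148 sectors were detected (2.03%, 0.692% to 5.79%), against 0.0937% of all de novo leaf sites.

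**Figure D1:**
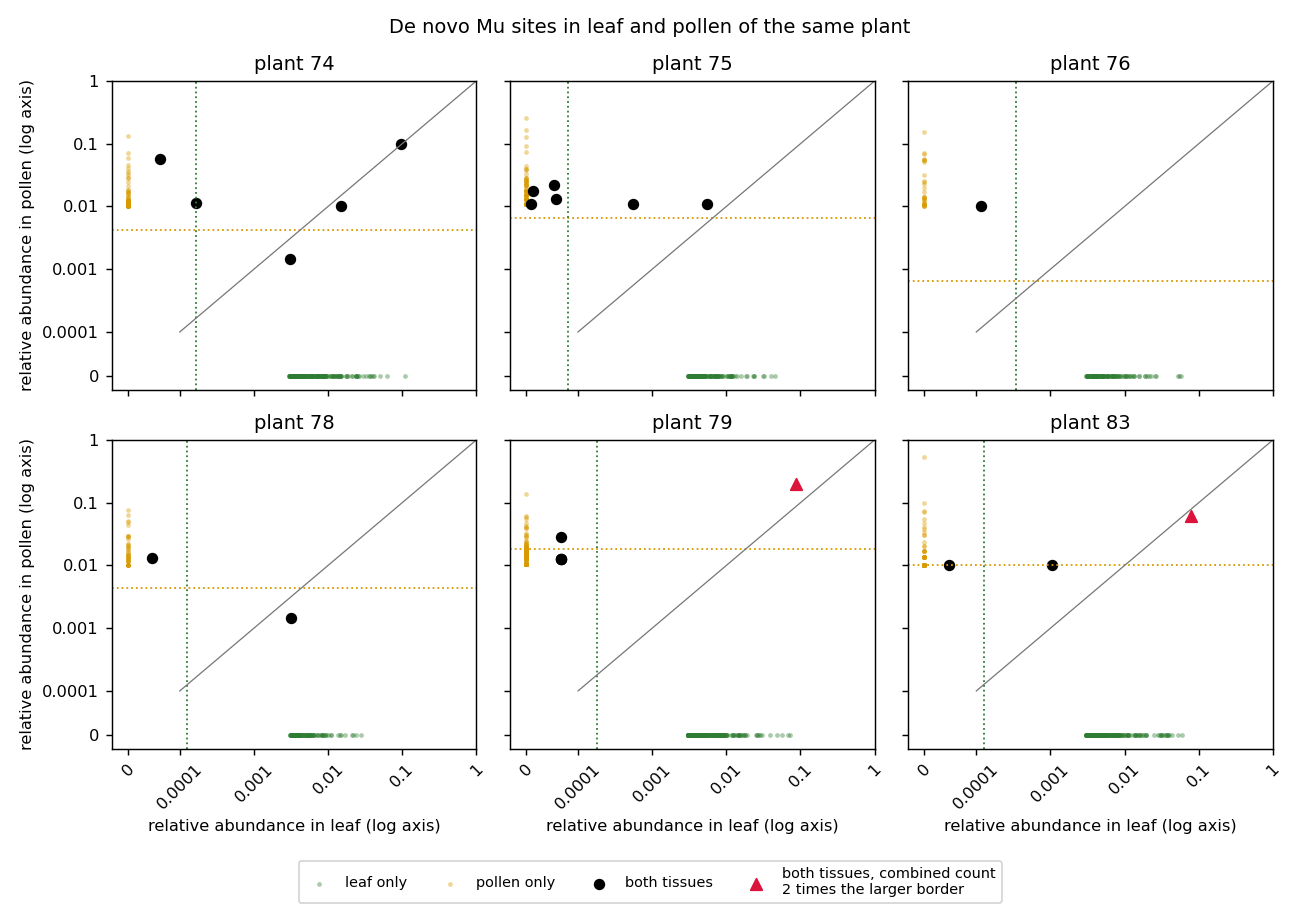
Relative abundance of de novo sites in leaf (horizontal, log axis with 0 marked) and pollen (vertical, likewise) in each of the 6 plants, for sites of at least 0.003 in leaf or 0.01 in pollen. Dotted lines are the floors of 3 counts, the diagonal marks equal abundance, and nearly all sites lie on the 0 line of the other tissue. Triangles are sites whose combined count is 2 times the larger border.

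The depth of each pollen sample was set against its undetected sectors. In plants 74, 75, 76, 78 and 83 the leaf abundance of all 145 undetected sectors was above the floor of the pollen sample. In plant 79 this held for 12 of 33. Had each sector been as abundant in pollen as in leaf, the 6 pollen samples would have read 3768 counts at these sites, and 125 were read. Without plant 79 the values were 3628 and 93. In the deepest pair, plant 76, 2189 counts would have been read at its 23 sectors and 0 were.

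**Figure D2:**
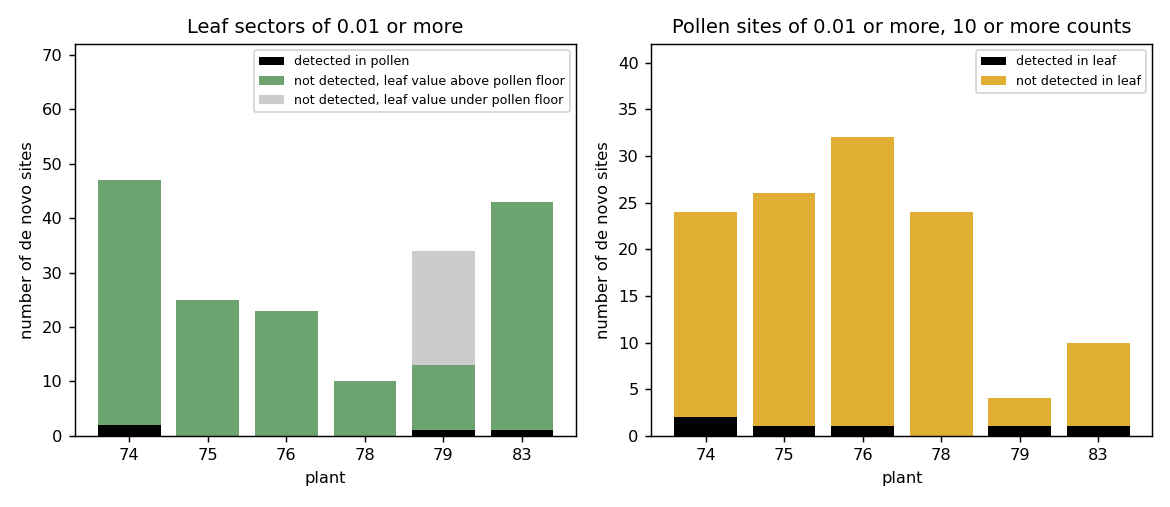
Left, leaf sectors of 0.01 or more in each plant, split by detection in pollen and by whether the leaf value lies above the pollen floor; right, pollen sites of 0.01 or more with at least 10 counts, split by detection in leaf. Detected sites (black) are at most 2 per plant on either side.

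The sector of highest abundance that was found in both tissues with both borders read lay in plant 74, on chromosome 6 at positions 166963081 to 166963089. Its relative abundance was 0.0979 in leaf (Poisson 95% interval 0.0934 to 0.103), from 920 and 828 counts in the 2 technical libraries. In pollen it was 0.0974 (0.0756 to 0.123), from 68 counts split evenly between the left and right borders, 34 each. The values in leaf and pollen differed by less than their counting error. The site had no counts in the endosperm or the root of the plant, whose floors were 0.000283 and 0.000345.

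The second sector of plant 74 found in pollen lay on chromosome 1 at positions 4655014 to 4655022. It was at 0.0148 in leaf (264 counts) and 0.01002 in pollen (7 counts, interval 0.00403 to 0.0206). All of these counts were from the left border, in leaf and in pollen alike, so the far end of this insertion was not seen. Endosperm and root had no counts here either.

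The other 2 shared sectors were also read in endosperm. The plant 79 sector on chromosome 10 at positions 142957255 to 142957263 was at 0.0882 in leaf and 0.196 in pollen, with 18 and 14 counts in the 2 pollen libraries. The plant 83 sector on chromosome 7 at positions 162818402 to 162818410 was at 0.0777 in leaf and 0.0614 in pollen. Both were read from the left border alone, and both belong to 163 sites in the table whose combined count is 2 times the larger border, so their read counts are lower by that factor than the counts given. In endosperm they were at 0.0607 and 0.0609. Their endosperm values stood under the 0.1 asked of an inherited site, and whether they are inherited sites read from one border was not tested. When both borders had to be read in a tissue, the count of leaf sectors found in pollen fell from 4 to 1, the plant 74 site on chromosome 6.

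**Figure D3:**
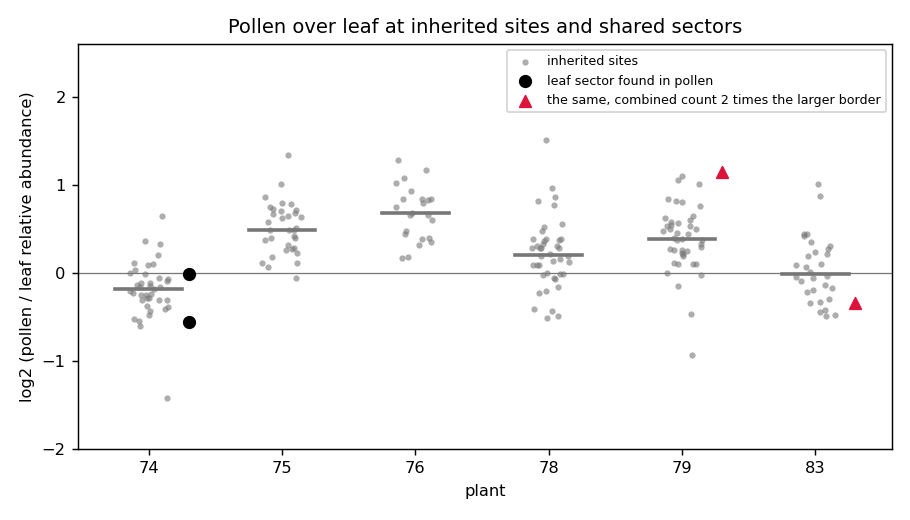
Log2 ratio of pollen to leaf relative abundance at 209 inherited sites (grey, with the median of each plant as a bar) and at the 4 leaf sectors found in pollen (black or triangles). The 2 sectors of plant 74 and the sector of plant 83 lie within the range of that plant's inherited sites, and the sector of plant 79 lies just above it.

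Most sectors as large as these had no counts in pollen. The most abundant leaf sector of the 6 plants was in plant 74 on chromosome 9 at positions 2589202 to 2589210. It reached 0.110 (1961 counts, 0.111 and 0.109 in the 2 technical libraries) and had 0 counts in pollen, so its pollen abundance was at most 0.0391 of the leaf value at the floor. It exceeded the chromosome 6 sector of the same leaf, which was in pollen at its full leaf abundance. The larger of these 2 sectors was the one missing from pollen. In plant 76 the largest sectors lay on chromosome 7 at 120042249 to 120042257 (0.0572, 493 counts) and on chromosome 5 at 58108716 to 58108724 (0.0540, 465 counts). Both had 0 counts in the deep pollen library, and the floor was 0.0114 and 0.0121 of their leaf values.

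The leading sectors of the other plants gave the same reading at a coarser limit. In plant 75 they lay on chromosome 3 at 159846032 (0.0449) and 193754719 (0.0405), where the pollen floor was 0.148 and 0.164 of the leaf value. In plant 78 they lay on chromosome 7 at 11680255 (0.0278) and chromosome 2 at 226746065 (0.0237). In plant 79 the leading sectors with both borders read were on chromosome 4 at 190388759 (0.0729) and 167203757 (0.0685). In plant 83 they were on chromosome 1 at 247464748 (0.0598) and chromosome 9 at 157779172 (0.0530). None of these had a pollen count.

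The leaf values themselves were repeatable. Where a leaf DNA had been split after shearing, all 45 sectors of the first library of plant 74 and all 22 of plant 75 were found in the second, which carried 99.7% and 98.9% of their summed abundance. The second leaf library of plant 75 is assigned to plant 76 in its title and to plant 75 in its description, and it shared these sectors with plant 75. In contrast, of 921 pollen sites of 0.01 or more in the first library of plant 79, 87 (9.45%) were found in the second library of the same DNA. At that depth a single count equals a relative abundance of 0.0105 in the first library and 0.0145 in the second, and 85.6% and 89.0% of their sites were read by 1 count.

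Carry-over was measured as the summed pollen abundance at leaf sites over their summed leaf abundance, a share that does not need a site to pass a detection threshold. It was 9.28% in plant 74, 0% in plants 75, 76 and 78, 23.0% in plant 79 and 5.79% in plant 83 for sectors of 0.01 or more. Each nonzero value rests on the 1 or 2 sectors described above. For leaf sites of 0.001 to 0.01 it was between 0% and 1.02%, from 7 detected sites among 3237. In plant 75 such a site on chromosome 8 at 144145489 was at 0.00543 in leaf, 0.0111 in pollen (5 counts), 0.00770 in endosperm and 0.00840 in root, read almost wholly from the right border. In plant 83 one on chromosome 3 at 9276987 was at 0.00106 in leaf and 0.0102 in pollen, from 3 counts of the right border. It was at 0.000546 in endosperm (7 counts). A site of plant 75 on chromosome 10 at 107599552, at 0.000548 in leaf, was at 0.0111 in pollen from 5 counts of the left border. In endosperm it had 3 counts (0.000592). The mean difference between the 2 classes was 5.95 ± 9.23 percentage points (SD, n = 6 plants), was positive in 3 plants and did not pass the exact sign-flip test (two-sided p = 0.25, adjusted p = 0.292). Without plant 79 it was 2.55 points. It was 1.16 points without the sites of 2 times the larger border, 1.53 without sites read in endosperm and 1.43 with both borders read, each positive in 1 plant.

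Detection was also counted by sector size, pooled over plants. Of 37 sectors of 0.03 to 0.1, 3 were detected in pollen (8.11%, Wilson 95% interval 2.80% to 21.3%). Of 144 sectors of 0.01 to 0.03, 1 was detected (0.694%, 0.123% to 3.83%). Of the 3237 sites of 0.001 to 0.01, 7 were detected (0.216%). A larger leaf site also has more chance of a count in shallow pollen at the same carry-over, and 2 of the 3 sites in the upper class are the one-border sites read in endosperm.

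The restriction to sites of 1 plant removes any site that recurs elsewhere, so leaf and pollen were also compared with such sites kept, provided they were inherited in no plant and absent from Mu-inactive leaf. This gave 468 leaf sectors, of which 29 had counts in the pollen of the same plant, against 1.05% of all leaf sites kept by that rule. Without plant 79 it was 27 of 374, against 1.2%. Each leaf could then be set against the pollen of the other 5 plants as well as its own. Own pollen held 5.98%, 6.67%, 10.9%, 9.76%, 2.13% and 5.43% of the sectors of plants 74, 75, 76, 78, 79 and 83. Pollen of the other plants held on average 2.22%, 3.33%, 2.5%, 1.95%, 4.04% and 2.61% of the same sectors. Depth was not matched between own and other pollen in these shares. The deep pollen of plant 76 held on average 7.08% of the sectors of the other leaves, and the shallow pollen of plant 79 held 1.18%.

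The mean excess of own over other pollen was 4.04 ± 3.77 percentage points (SD, n = 6 plants) and was positive in 5 of 6 plants. It passed an exact one-sided permutation test over the 720 pairings of leaves with pollen samples (p = 0.00278, adjusted p = 0.0194 over 7 tests). It was the only one of the 7 comparisons to do so. Without plant 79 the excess was 4.90 points and had the smallest p that 120 pairings allow (exact p = 0.00833, adjusted p = 0.0583). The call also ended when both borders were required (1.08 points, exact p = 0.0653, adjusted p = 0.152), when the sites of 2 times the larger border were left out (2.03 points, exact p = 0.0111, adjusted p = 0.0778) and when sites read in the plant's endosperm were left out (1.51 points, exact p = 0.0222, adjusted p = 0.109). Most of the excess was lost when both borders were required, and likewise when sites read in endosperm were left out.

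The shares were then split by the abundance of the site in leaf. In sectors of 0.03 to 0.1, own pollen held 10.8% ± 3.26 and pollen of other plants 1.53%, and own was above other leaves in 6 of 6 pollen samples. These own shares rest on 9 detected sites of 88, 1 or 2 per plant. Among them are sites of 2 times the larger border and sites also read in endosperm. In sectors of 0.01 to 0.03 the values were 5.76% ± 3.54 and 3.08%. At 0.001 to 0.01 they were 4.33% ± 3.29 and 4.27%. Under 0.001 they were 1.46% ± 1.81 and 1.29%, with own above the mean of the other leaves in 2 of 6 pollen samples. The differences between size classes were not tested.

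**Figure D4:**
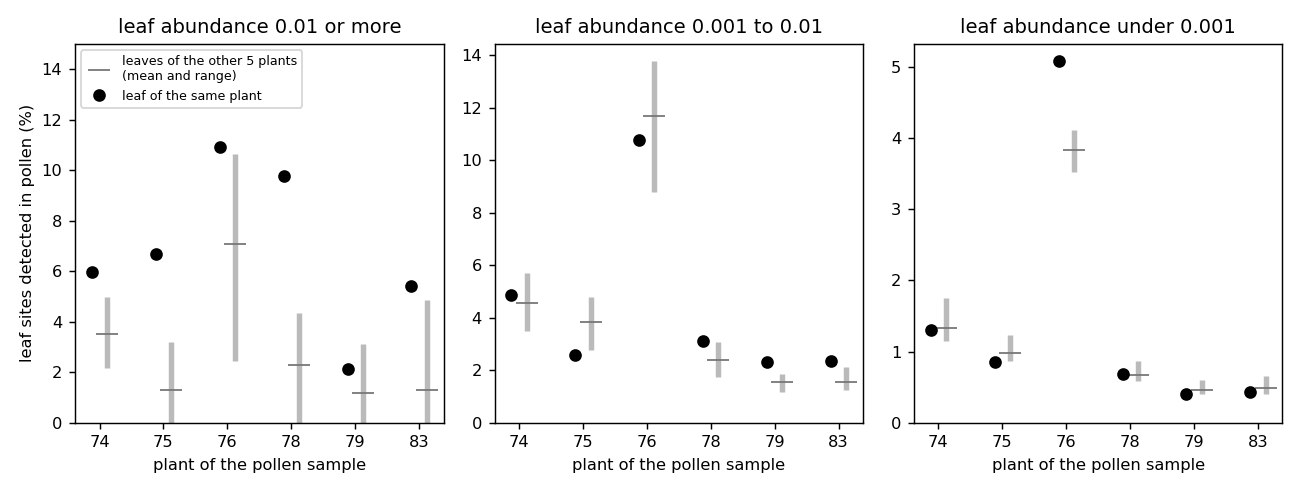
Share of leaf sites detected in each pollen sample, for the leaf of the same plant (black points) and the leaves of the other 5 plants (grey mean and range), by relative abundance of the site in leaf, with sites of several plants kept. At 0.01 or more the own leaf lies above the mean of the other leaves in all 6 samples, and under 0.001 in 2.

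Among the recurring sites, 12 further leaf sectors had at least 3 pollen counts in the same plant. Their values were listed because they were seen to be shared, so they carry no test. A site of plant 76 on chromosome 7 at 95136693 was at 0.0492 in leaf and 0.115 in pollen (526 counts) and at 0.0672 in endosperm. It was counted in 14 other plants, at up to 0.000752. The remaining 4 such sites of plant 76 had pollen values of 0.000654 to 0.00153, or 0.0585 to 0.0752 of the leaf value. These values lie at or little above the floor of the deepest pollen library and under the floors of the other 5 pollen samples. The same 4 sites were counted in 4 to 13 other plants. A site of plant 79 on chromosome 2 at 209888224 was at 0.337 in leaf and 0.750 in pollen but at 0.000342 in endosperm. It is one of the sites of 2 times the larger border, was read from the left border alone in leaf, and was counted in 6 other plants at up to 0.0135. In plant 74 a site on chromosome 9 at 153585240 was read from both borders in both tissues and had no counts in endosperm or root. It was at 0.0111 in leaf and 0.00859 in pollen (6 counts), 0.777 of the leaf value. The second site of plant 74, on chromosome 8 at 147775117, had 0.703 of its leaf value in pollen, from 5 counts of the left border. It was read in endosperm at 0.0110 and in root at 0.00965. It was also counted in 1 other plant, at 0.0265, above its 0.0102 in this leaf. The site of plant 75 on chromosome 3 at 39584778 had 0.251 of its leaf value, from 4 counts, and was counted in 10 other plants. In plant 78 a site on chromosome 1 at 264502623 had 0.997 of its leaf value. A site on chromosome 5 at 16658729 was shared in plants 78 and 83 alike, with 1.96 and 1.56 times the leaf value. For either plant this site had counts in 13 other plants, at up to 0.119, and its endosperm values were 0.0729 and 0.0790. The sites of plants 75, 78 and 83 are all sites of 2 times the larger border, and each was also read in endosperm.

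The comparison was also made from the pollen side. The 6 pollen samples held 120 de novo sites of 0.01 or more with at least 10 counts, of which 6 had any count in leaf (5%, Wilson 95% interval 2.31% to 10.5%), against 1.57% of all de novo pollen sites. Of these 6, 3 were at 0.001 or more in leaf. They are the chromosome 6 site of plant 74 and the sites of plants 79 and 83 described above. Without plant 79 the count was 5 of 116 (4.31%), against 1.54%. Both borders were read in pollen at 105 of the 120 sites. With recurring sites kept and no minimum of counts, 348 of 1297 pollen sites of 0.01 or more had a leaf count (26.8%), against 16.8% of all pollen sites kept by that rule. Without plant 79 the shares were 26.8% and 16.4%. Here depth sets a finer limit, since the leaf floors were between 7.25e-05 and 0.000348.

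Many abundant pollen sites had no leaf count. Of the 8 de novo pollen sites of 0.1 or more, 1 had a count in leaf, the plant 79 site on chromosome 10, against 3 of 51 at 0.03 to 0.1 and 16 of 455 at 0.01 to 0.03. In plant 83 a site on chromosome 9 at 159535430 to 159535438 stood at 0.543 in pollen (159 counts, 129 from the left and 30 from the right border) with 0 counts in leaf and endosperm. The median at the inherited sites of the same pollen was 0.703. The floor of the leaf library was 0.000128. Read from the left border alone its relative abundance was 1.12, and from the right border alone it was 0.248. In plant 75, sites on chromosome 2 at 2061587 (0.259, 117 counts) and chromosome 3 at 127313496 (0.164, 74 counts) had 0 counts in 2 leaf libraries, root and endosperm.

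The remaining plants showed pollen sites of the same kind. In plant 76 a site on chromosome 8 at 28872284 was at 0.153 (702 counts, 401 left and 301 right) and one on chromosome 5 at 172795708 was at 0.0687. In plant 74 a site on chromosome 7 at 141313209 was at 0.132 with 45 left and 47 right counts. In plant 79 a site on chromosome 1 at 4304645 was at 0.157 and 0.116 in the 2 pollen libraries, and one on the same chromosome at 222007415 was at 0.0604 from 10 counts. A further site of plant 83, on chromosome 2 at 197305499, was at 0.0990. In plant 78 sites on chromosome 3 at 231798180 and 9825949 were at 0.0768 and 0.0635. All of these had 0 counts in leaf and endosperm.

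The other tissues of the plants held few of these sites. In plants 74 and 75, which also have root libraries, none of the 47 and 25 leaf sectors and none of the 24 and 26 pollen sites of 0.01 or more with at least 10 counts were read in root. The share of all de novo sites read in root is not given here. Endosperm held none of the leaf sectors of plants 74, 75, 76 and 78, 3 of 34 in plant 79 and 4 of 43 in plant 83. Over the 6 plants that is 7 of 182 sectors (3.85%). Of smaller de novo leaf sites, endosperm held 3.49% at 0.001 to 0.01 and 0.931% under 0.001. Leaf sectors and pollen sites were spread over all 10 chromosomes. Chromosome 5 held 31 of the 182 leaf sectors and 13 of the 120 pollen sites, and chromosome 10 held 11 and 8.

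The overall amount of new insertion did not separate the tissues. The de novo load, the summed relative abundance of all de novo sites, was 9.41, 6.05, 6.14, 6.69, 10.6 and 10.1 in the leaves of plants 74, 75, 76, 78, 79 and 83. In their pollen it was 9.24, 10.8, 8.09, 5.40, 11.6 and 7.63. The ranges overlap almost wholly. The mean log2 difference of pollen minus leaf was 0.10 ± 0.46 (SD, n = 6), was positive in 3 plants and did not pass the exact sign-flip test (two-sided p = 0.625, adjusted p = 0.625). Its sign and size moved with the rules. It was -0.08 on library totals and -0.16 with inherited sites as the scale. It was 0.61, positive in 6 of 6 plants (exact sign-flip p = 0.03125, adjusted p = 0.0729), under a rule added after seeing the data. Under this rule recurring sites were kept wherever other plants stayed under 0.1 of the plant's own value, the higher of leaf and pollen. A count of 1 is a higher relative abundance in pollen than in leaf of every plant, so recurring sites pass more readily through pollen. The load rose more in pollen than in leaf in each plant, in plant 79 from 11.6 to 25.1 against 10.6 to 13.1. The 0.61 therefore does not measure a tissue difference apart from depth.

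The share of load held by sites of 0.01 or more was higher in pollen in every plant but did not pass after adjustment. Sites of 0.01 or more held 12.3%, 7.37%, 7.78%, 2.63%, 8.05% and 10.5% of the leaf load in plants 74 to 83, and 13.4%, 21.96%, 11.4%, 16.6%, 28.2% and 26.0% of the pollen load. The share was higher in pollen in 6 of 6 plants, by 11.5 ± 7.43 percentage points (SD, n = 6). The exact sign-flip test gave the smallest p it can give with 6 plants (two-sided p = 0.03125), which was 0.109 after adjustment over 7 tests. Treated as 6 leaf against 6 pollen values without the plant as a block, the adjusted p of the exact permutation test was 0.0152. Shallow counts scatter more sites over the threshold. Both tissues of a plant were therefore also brought to the lower reference level, a setting added once the data had been seen. The leaf share was 11.1% ± 4.95 and the pollen share 19.7% ± 6.98. The difference was then 8.63 points, positive in 5 of 6 plants (exact two-sided sign-flip p = 0.0625, adjusted p = 0.146), and plant 74 turned, with 14.5% in leaf and 13.4% in pollen. The size of the difference moved widely with the rules. It was 3.64 points in plant 76 alone and 5.42 at a threshold of 0.02. It was 28.6 at 0.005, 33.2 with at least 2 counts per site and 37.6 with both borders read. At 0.005, with at least 2 counts and with both borders, the pollen share of plant 79 was 100%. Its shallow depth fixed that value, since every site kept lay over the threshold. In the other plants too, asking 2 counts or both borders drops small sites, up to a higher relative abundance in pollen than in leaf. With both borders, the pollen share was 40.2%, 58.3%, 39.7% and 82.7% in plants 74, 75, 78 and 83. In plant 76, with the deepest pollen, it was 17.0% against 21.3% in leaf. Neither the 33.2 nor the 37.6 points compares the tissues at equal depth. The difference was positive in 5 of 6 plants at 0.02, with at least 2 counts, with both borders and on library totals.

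**Figure D5:**
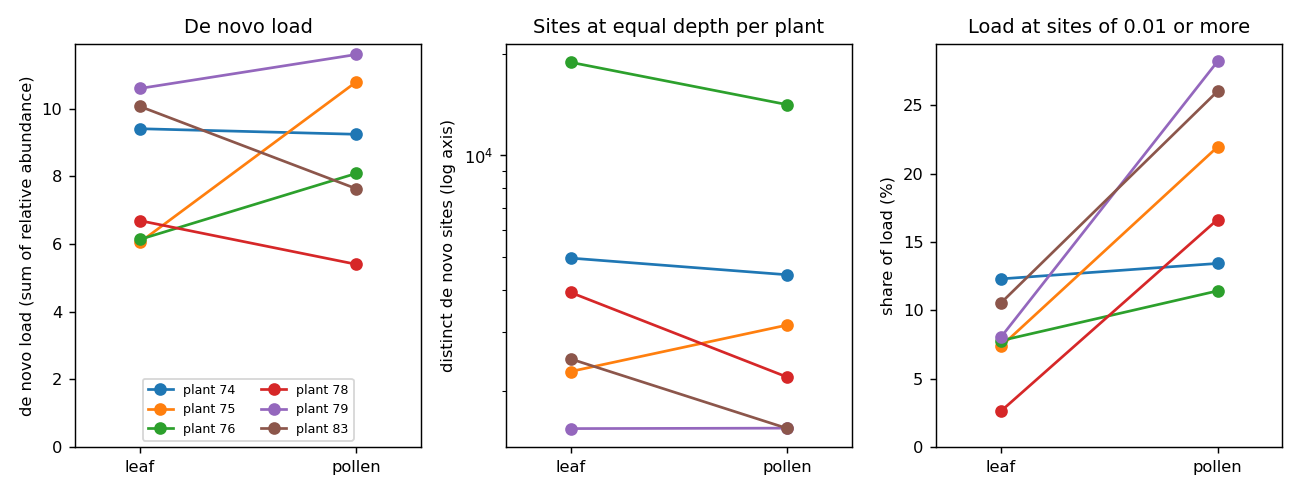
De novo load (left), distinct de novo sites with each plant's tissues at the lower of their reference levels (middle, log axis) and percent of load at sites of 0.01 or more (right), with a line joining leaf and pollen of each plant. Load rises in 3 plants and falls in 3, whereas the share at abundant sites, at the deposited depths, is higher in pollen in all 6.

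Counts of distinct sites depended on the counts asked of a site. At equal depth, leaf and pollen of plant 74 held 4960.5 and 4427 sites, and those of plant 76 held 18889.5 and 14150. The mean log2 difference was -0.27 ± 0.47 (SD, n = 6), positive in 2 plants (exact two-sided sign-flip p = 0.25, adjusted p = 0.292). At 3 or more counts pollen held 1.13 to 3.37 times as many sites as leaf at the same depth, higher in 6 of 6 plants, with 3111 against 996 in plant 76 and 278 against 82.6 in plant 75. At 10 or more counts the ratio ran from 0.674 in plant 74 to 3.59 in plant 75, and pollen was higher in 4 of 6 plants. When both borders had to be read the log2 difference was -1.61, positive in 1 plant (exact sign-flip p = 0.0625, adjusted p = 0.152). The border rule was applied at each tissue's own depth, before the deeper leaf was thinned. The -1.61 therefore does not compare the tissues at equal depth. Counts here follow PCR and are not known to be independent molecules, and the part of unequal amplification in these differences was not tested.

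The share of load that one tissue shared with the other was low in both directions. With both tissues at the lower depth, 0.802% ± 0.630 of the pollen load lay at sites detected in leaf and 0.598% ± 0.469 of the leaf load at sites detected in pollen (SD, n = 6). The difference of 0.204 points was positive in 5 of 6 plants and did not pass the exact sign-flip test (two-sided p = 0.0625, adjusted p = 0.146). Without plant 79 it was 0.0737 points.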

How the data were processed

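Libraries were made from DNA flanking Mu ends by adapter ligation and PCR, per the labels' protocols. The authors deposited whole-number counts per insertion site for each library, in 1 table of both borders and 1 per border, with 2253850 sites, 99.9942% of them 9 bp from border to border. The submitters' processing notes name Bowtie2 without a version. Nothing used here states the genome build, the insertion caller, the filters or any collapsing of molecules. Positions are 1-based as deposited. They reach 310879913 on chromosome 1, past the last gene end (308332590) of the B73 gene table at hand, so neither gene context nor flanking sequence is given.

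The plant was the replicate, with its technical libraries averaged. Leaf and pollen of a plant share its number because they come from the same plant, per the series' design text, so the plant was the block in exact sign-flip tests. The pairing of leaf with pollen was tested over all pairings, and the 7 p-values were adjusted by Benjamini-Hochberg. With 6 plants the smallest sign-flip p is 0.03125, and with 5 it is 0.0625. Equal depth means analytic thinning to the lower reference level of the plant's tissues. Intervals are 95% and cover counting error only, since reads after PCR may repeat 1 molecule. The Wilson intervals take the sites of all plants as 1 pool and do not measure the spread between plants. Named by rule were, for each plant, the 2 most abundant de novo sites in leaf and in pollen (10 or more counts, both borders read) and the 2 most abundant in both (10 or more leaf and 3 or more pollen counts). The plant 74 sectors and others found in pollen are named whether or not the rule names them. Members, thresholds and lists were chosen with earlier results of these data known. Load, carry-over, the calls of inherited sites and the pairing test were tried on simulated data drawn at the depths of these libraries. The simulated counts had Poisson scatter only, and each simulated de novo site was placed in 1 plant, so recurring sites were not covered. The sign-flip and pairing tests were also run on random values without a difference. Site counts at equal depth, shares at abundant sites, shared loads and Dixon's rule were not tried in this way. Python 3.11.15, numpy 2.4.6, pandas 2.3.3, scipy 1.17.1 and matplotlib 3.10.9 were used. No source used here gives sequencing runs, so no batch was tested.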

Additional observations from a re-analysis of the deposited data

Results flagged for a closer look

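At equal depth within each plant, plant 76 stood apart from the other 5 in the number of distinct de novo sites, with 18889.5 in leaf and 14150 in pollen. In both tissues its gap to the next plant, as a share of the whole range, was above Dixon's 95% value for 6 samples. Both numbers were taken at the pollen reference level of the plant, which was 4586 in plant 76 and 164.5 to 698.5 in the others. Deeper libraries read more sites, so this flag does not compare the plants with each other at equal depth. Dixon's rule marks about 1 in 20 groups by chance.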

How the results depend on the processing

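Depth limits the comparison: a reference level of at least 1000 left plant 76 alone, where the carry-over difference was -0.0861 points and no test could be made. The plant pairing, used as the replicate block, changed 1 call: without it the share at abundant sites, 11.5 points in both fits, passed (exact permutation, adjusted p = 0.0152). The log2 load difference turned to -0.24 with at least 2 counts per site, -0.28 with both borders, -0.0777 on library totals, -0.16 on inherited sites and -0.0620 in the right border table, and ran from -0.0410 (without plant 75) to 0.21 leaving out each plant. The widest values of the other alternatives were 0.61 for load and -1.61 for distinct sites. They were 3.64 and 37.6 points for the share at abundant sites and 0.0509 and 0.403 for inherited sites. The -1.61, with both borders read, was not taken at equal depth. The 37.6 points, with both borders read, include a pollen share of 100% in plant 79, which its shallow depth fixed. In the other plants too, that rule dropped small sites up to a higher relative abundance in pollen than in leaf. The log2 difference in distinct sites turned to 1.07 with at least 2 counts per site. It was 0.24 when recurring sites were kept wherever other plants stayed under 0.1 of the plant's own value. That last rule, which also gave the 0.61 for load, lets recurring sites pass more readily through the shallower pollen. The own-pollen excess ran from 3.13 to 4.90 points leaving out each plant in turn and lost its call each time, as it must, since 5 plants allow no adjusted p under 0.0583. With both borders it was 1.08 points, without sites of 2 times the larger border 2.03 and without sites read in endosperm 1.51, the last 2 being added after seeing the data. Its adjusted p ran from 0.00972 to 0.152 over all alternatives.

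The 4 sectors found in pollen became 1 with both borders, 29 with sites of several plants kept, 13 with those under 0.1 elsewhere kept, 0 in plant 76 alone, 2 without the sites of 2 times the larger border, 2 without sites read in endosperm, and 2 to 4 leaving out each plant. The number of sectors was 378 on inherited sites, 69 at a threshold of 0.02, 521 at 0.005, 468 and 389 with recurring sites kept, 349 in the right border table and 23 in plant 76. Pollen sites of 0.01 or more found in leaf, 6 of 120, became 2 with both borders, 84 of 305 with sites of several plants kept, 60 of 276 with those under 0.1 elsewhere, 1 of 32 in plant 76, 3 in the right border table, and 4 to 6 leaving out each plant. At a threshold of 0.005 there were 209 such sites. The cause of these changes was not tested beyond what each rule removes. Of 290 recomputed values at named sites, 79 moved by more than their counting interval, most of them by border or scale.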
